A study of Mus musculus with 28 samples.

Results

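The genes described here encode lung surfactant proteins and other products of alveolar type 2 cells. These 10 were listed by name, Sftpa1, Sftpb, Sftpc, Sftpd, Abca3, Lamp3, Napsa, Slc34a2, Lpcat1 and Cxcl15, and each was to be read from a probe set annotated with 1 gene symbol. Of these 10 genes 9 were measured, among 18194 genes on the array. The probe set of Lamp3 was annotated with a second gene as well, so Lamp3 has no value here. A gene with more than 1 probe set was read from the brightest of them, by the mean of the 26 tissue samples.

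Expression was read on Affymetrix mouse arrays in 28 samples. Of these, 11 were primary tumors (PT) and 9 were lung metastases (LungMets), both from female Balb/c athymic nude mice, which lack mature T cells and were young adults at the start by the study's methods. JygMC(A) is a mammary carcinoma line of the mouse whose tumors seed the lung without further handling, and the methods name a derivative with green fluorescent protein and luciferase reporters. For every tumor 50000 cells of this line were given into the 4th mammary gland, PT was taken on day 30 and LungMets on day 50. Healthy mice of the same strain gave 3 samples of normal lung parenchyma (NL) and 3 of normal mammary gland (NMG). Cultures of the line, a monolayer and 3D spheres, had a single array per culture and so no replicate error. Both tumor groups rest on 1 cell line, and the arrays were made from whole tissue. The labels call the samples biological replicates and do not say which of them came from the same mouse, so p-values measure the spread between these samples.

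Pulmonary surfactant is a film of phospholipid and protein that lowers the surface tension of the air spaces. Alveolar type 2 cells make its lipids and proteins, store them in lamellar bodies, and release and recycle them. The collectins SP-A and SP-D also bind microbes, and the small hydrophobic proteins SP-B and SP-C spread the lipid film. These products mark the alveolar epithelium of a normal lung.

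The transcription of surfactant genes is known to depend on NKX2-1, FOXA and C/EBP factors, and promoters are shown as a description. The part of these factors in the differences between samples was not tested. RefSeq promoter entries (GRCm38.p6) were matched for 7 of the 10 genes, and Sftpc, Sftpd and Napsa were not matched. Both strands of the 250 bases before the start were searched for CACTTG (NKX2 core), CTTGAG (NKX2-1 core), TGTTTAC (FOXA) and TTGCNNAA (C/EBP), none of which overlap in the matches shown. Of these, 4 promoters are printed 5′ to 3′ on the plus strand, which is the coding strand of each, with the matches in capitals. Sftpa1 (chr14:41131538-41131787) held CACTTG at positions -202 and -14 and the reverse complement CTCAAG at -166, counted from the start. Sftpb (chr6:72304360-72304609) held CTCAAG at -100 and -15, Slc34a2 (chr5:53049103-53049352) held a C/EBP match at -48, and Cxcl15 (chr5:90794284-90794533) held none of these letters.
Sftpa1: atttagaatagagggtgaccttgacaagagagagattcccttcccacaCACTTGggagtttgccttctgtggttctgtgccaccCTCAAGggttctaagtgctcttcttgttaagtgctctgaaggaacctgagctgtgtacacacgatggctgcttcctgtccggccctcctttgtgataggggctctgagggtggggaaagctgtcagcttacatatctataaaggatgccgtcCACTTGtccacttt
Sftpb: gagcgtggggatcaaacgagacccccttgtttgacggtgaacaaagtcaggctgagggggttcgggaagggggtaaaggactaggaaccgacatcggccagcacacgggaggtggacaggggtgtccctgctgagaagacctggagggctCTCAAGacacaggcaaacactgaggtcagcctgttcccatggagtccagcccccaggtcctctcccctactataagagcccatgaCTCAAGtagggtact
Slc34a2: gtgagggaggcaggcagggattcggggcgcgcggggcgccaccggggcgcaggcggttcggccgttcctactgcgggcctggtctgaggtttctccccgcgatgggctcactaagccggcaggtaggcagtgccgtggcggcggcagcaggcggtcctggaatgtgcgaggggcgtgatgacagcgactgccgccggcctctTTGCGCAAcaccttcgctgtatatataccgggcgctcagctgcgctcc
Cxcl15: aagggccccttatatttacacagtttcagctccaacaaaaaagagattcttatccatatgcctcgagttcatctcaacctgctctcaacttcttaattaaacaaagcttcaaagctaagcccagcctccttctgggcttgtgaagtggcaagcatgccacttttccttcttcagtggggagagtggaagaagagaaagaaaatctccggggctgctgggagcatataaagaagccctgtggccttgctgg
Of 32851 promoters of the same length, 11.6% held CACTTG, 13.3% CTTGAG, 3.17% TGTTTAC and 9.56% TTGCNNAA. The Lamp3 promoter held 1 FOXA match at -92, and those of Abca3 and Lpcat1 held no match. A match describes letters only and was not read as a bound site.

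A set of 3 samples stood apart from their groups in the same data that are compared below. PT replicate 5 correlated at 0.989 with the LungMets mean and at 0.968 with the mean of the other PT over all genes, and LungMets replicate 9 at 0.983 with the PT mean and at 0.963 with its own group. In NMG replicate 1 the club cell gene Scgb1a1 read 11.51, against 7.15 and 3.29 in the other NMG. Both tumor samples thus went against their labels, and whether these labels were exchanged was not tested. PT replicate 5 also read close to LungMets replicate 5 across the 9 genes. The values were 11.98 and 12.03 for Sftpa1, 13.17 and 13.22 for Sftpc and 11.13 and 11.31 for Cxcl15, and the reason for this closeness was not tested. All 3 samples stayed under their labels, which every value below rests on, and the main comparisons are also given without them. Array medians lay between 5.00 and 5.18 on the log2 scale, and the number of arrays limits the precision. The labels carry 4 dates: the first held 4 PT and 4 LungMets, the second 7 PT and 5 LungMets, and NL and NMG had a date of their own, so that date and tissue cannot be told apart in comparisons with them.

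Every LungMets sample lay below every NL sample for all 9 genes, where 17.4% of all genes had that order. With limma and adjustment over all genes, 4 of the 9 were lower in LungMets than in NL at an adjusted p under 0.05, and 22.4% of all genes were called lower. The 4 were Sftpb, Abca3, Lpcat1 and Napsa, and without NL replicate 1 the calls of Lpcat1 and Napsa were lost, which left 2. The share of all genes called without NL replicate 1 is not given here. The 9 differences ran from -2.38 to -0.74 log2 units with a median of -2.13, and the median of all genes was 0.05. Without PT replicate 5 and LungMets replicate 9 the 4 were called again and 4 more were gained, so that Sftpc alone was not called, and 22.5% of all genes were called lower. PT replicate 5 is in neither group and enters through the spread that all groups share. Without LungMets replicate 9 alone the 4 gained genes were not called (limma adjusted p = 0.283 for Sftpa1, 0.174 for Sftpd, 0.302 for Cxcl15 and 0.0571 for Slc34a2). Without PT replicate 5 alone Sftpd (adjusted p = 0.0366) and Slc34a2 (0.0103) were called, and Sftpa1 (0.0661) and Cxcl15 (0.0884) were not. In whole tissue, fewer alveolar type 2 cells and less RNA per cell cannot be told apart.

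**Figure D1:**
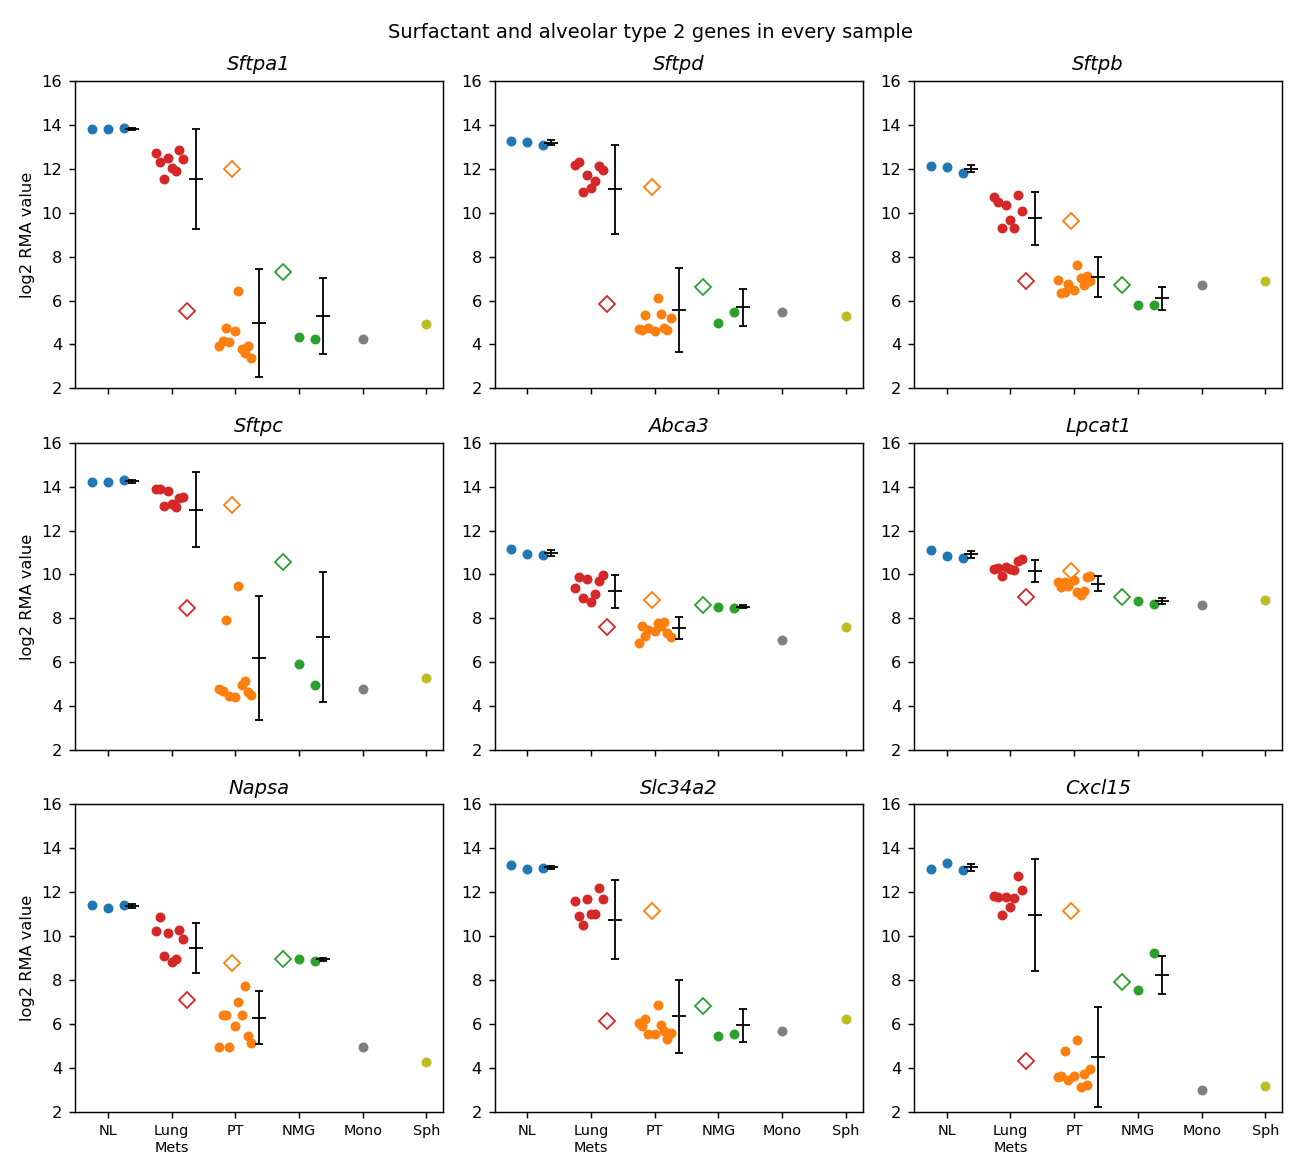
Log2 RMA values of the 9 genes (y axis) in every sample of NL, LungMets, PT, NMG, the monolayer (Mono) and the spheres (Sph). Points are samples, black marks with bars are the group mean ± SD, and open diamonds are PT replicate 5, LungMets replicate 9 and NMG replicate 1. The 3 NL samples lie together above all others in every panel, and the open diamonds of PT and LungMets lie apart from the other samples of their group in most panels.

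Sftpa1 (probe set 1422334_a_at) encodes SP-A, the more abundant surfactant collectin. It read 13.81, 13.80 and 13.88 in the 3 NL samples. In LungMets it had a lowest value of 5.53, a median of 12.31 and a highest of 12.84. PT had a lowest of 3.39, a median of 4.12 and a highest of 11.98, while NMG read 7.30, 4.35 and 4.26. The low LungMets value is replicate 9 and the high PT value is replicate 5, and the other LungMets lay at 11.54 or above. The LungMets mean minus the NL mean was -2.29 log2 units (SE 1.40, 95% interval -5.17 to 0.58, limma adjusted p = 0.185). Without the 2 samples that stood apart the difference was -1.54 (SE 0.532, adjusted p = 0.0208), or 34.3% of the NL level. A second probe set of Sftpa1 gave -2.37 (adjusted p = 0.0964).

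Sftpd (1420378_at) encodes SP-D, the other lung collectin. NL read 13.27, 13.23 and 13.08, and LungMets ran from 5.84 in replicate 9 through a median of 11.70 to 12.30 in replicate 2. PT ran from 4.62 through 4.77 to 11.17, and NMG read 6.63, 4.99 and 5.49. No LungMets sample reached the NL range. The difference from NL was -2.13 (SE 1.13, limma adjusted p = 0.125), and -1.47 (SE 0.330, adjusted p = 0.000813) without PT replicate 5 and LungMets replicate 9.

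Sftpb (1437028_at) encodes SP-B, a hydrophobic protein that packs lipid into lamellar bodies and spreads it. NL read 12.14, 12.07 and 11.82, and LungMets ran from 6.87 through 10.10 to 10.80. PT ran from 6.35 through 6.91 to 9.63, and NMG read 6.71, 5.79 and 5.81. LungMets replicates 3 and 6, at 9.30 and 9.32, were the lowest after replicate 9. The gene was lower in LungMets, at 20.8% of the NL level, with a difference of -2.27 (SE 0.614, limma adjusted p = 0.00386). Without the 2 samples that stood apart it was at 26.6% of NL (adjusted p = 1.97e-05).

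Sftpc (1418639_at) encodes SP-C, a hydrophobic protein made by alveolar type 2 cells. NL read 14.23, 14.19 and 14.29, near the array maxima of 13.92 to 14.86. LungMets ran from 8.49 through 13.48 to 13.90, and replicates 1, 2 and 4, with differences of -0.35, -0.34 and -0.41 from the NL mean, came closest to NL. PT ran from 4.41 through 4.77 to 13.17, and NMG read 10.55, 5.93 and 4.98. The difference from NL was -1.29 (95% interval -4.34 to 1.75, limma adjusted p = 0.502) and did not pass the test. Without the 2 samples that stood apart it was -0.73 (95% interval -2.72 to 1.25, adjusted p = 0.560). This interval uses the spread that all groups share. The Sftpc SD without these samples was 0.345 in LungMets and 0.0493 in NL, beside 1.74 in PT and 2.98 in NMG. A second Sftpc probe set near the lower end of the scale, with means of 3.43 in NL and 4.15 in LungMets, gave 0.72 (adjusted p = 0.184). Whether the closeness to the array maxima narrows the difference was not tested.

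Abca3 (1451731_at) encodes the transporter that loads phospholipid into lamellar bodies. NL read 11.15, 10.91 and 10.90, and LungMets ran from 7.59 through 9.39 to 9.96. PT ran from 6.88 through 7.47 to 8.82, and NMG lay close together at 8.60, 8.52 and 8.47. Abca3 was at 29.6% of the NL level in LungMets, a difference of -1.76 (SE 0.362, limma adjusted p = 0.000306), and -1.55 without the 2 samples that stood apart. Both other Abca3 probe sets were lower as well, with -1.89 (adjusted p = 7.07e-05) and -2.21 (adjusted p = 2.86e-07).

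Lpcat1 (1424460_s_at) encodes the acyltransferase that remodels phosphatidylcholine into its disaturated surfactant form, and many tissues express it. NL read 11.10, 10.86 and 10.77, and LungMets ran from 8.96 through 10.24 to 10.70. PT ran from 9.06 through 9.65 to 10.17, and NMG read 8.96, 8.77 and 8.67. The range from the lowest to the highest group mean was the narrowest of the 9 genes, and LungMets replicate 9 fell below every PT sample. The difference between LungMets and NL was -0.74 (SE 0.249, limma adjusted p = 0.0176), or 60.0% of the NL level, and -0.59 (adjusted p = 0.00683) without the 2 samples that stood apart. A further 2 bright Lpcat1 probe sets gave -1.06 and -0.91, and a pair of dim ones, with NL means of 4.12 and 3.96, gave 0.43 (adjusted p = 0.00697) and 0.22 (adjusted p = 0.230). The Lpcat1 call was lost with the mean of its probe sets (-0.41, adjusted p = 0.0735), without NL replicate 1 (-0.64, adjusted p = 0.0880) and where a fold change over 2 was asked for.

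Napsa (1423590_at) encodes napsin A, an aspartic protease that takes part in the maturation of SP-B. NL read 11.41, 11.27 and 11.44, and LungMets ran from 7.07 through 9.87 to 10.86. PT ran from 4.93 through 6.41 to 8.78, and NMG read 8.97, 8.98 and 8.88. LungMets replicates 3, 5 and 6, at 9.09, 8.81 and 8.97, lay near the NMG samples, and no LungMets sample reached NL. The difference from NL was -1.90 (SE 0.671, limma adjusted p = 0.0229), or 26.8% of the NL level, and -1.60 (adjusted p = 0.00930) without the 2 samples that stood apart. The call was lost when any 1 NL sample was left out (adjusted p = 0.0575 to 0.0713), with the replicate number as a block (0.0634) and with LungMets of the first label date alone (0.144).

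Slc34a2 (1416854_at) encodes the sodium-phosphate cotransporter that clears phosphate from the alveolar fluid. NL read 13.22, 13.05 and 13.12, and LungMets ran from 6.14 through 11.03 to 12.18. PT ran from 5.32 through 5.90 to 11.13, and NMG read 6.81, 5.47 and 5.54. The difference from NL was -2.38 (95% interval -4.41 to -0.35), with a limma adjusted p of 0.0510 that just missed the threshold. It was -1.80 (adjusted p = 7.57e-05) without PT replicate 5 and LungMets replicate 9, and it also passed when LungMets replicate 1, 4, 7 or 8 or PT replicate 5 alone was left out (adjusted p = 0.0103 to 0.0495) and with the replicate number as a block (0.0323). It passed as well with low genes removed, date as a random block or array weights (0.00563 to 0.0424). The Slc34a2 difference did not pass without any other single sample, with 0.0571 without LungMets replicate 9 and 0.110 to 0.121 without 1 of the NL samples.

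Cxcl15 (1421404_at) encodes lungkine, a chemokine of mouse lung epithelium that draws neutrophils into the airspace. NL read 13.07, 13.32 and 12.99, and LungMets ran from 4.29 through 11.77 to 12.76. PT ran from 3.12 through 3.64 to 11.13, and NMG read 7.92, 7.54 and 9.21. LungMets replicate 7 came closest to NL, with a difference of -0.36 from its mean, and replicate 9 lay farthest, at -8.84. The difference was -2.18 (95% interval -5.02 to 0.66, limma adjusted p = 0.203), and -1.35 (adjusted p = 0.00772) without the 2 samples that stood apart.

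**Figure D2:**
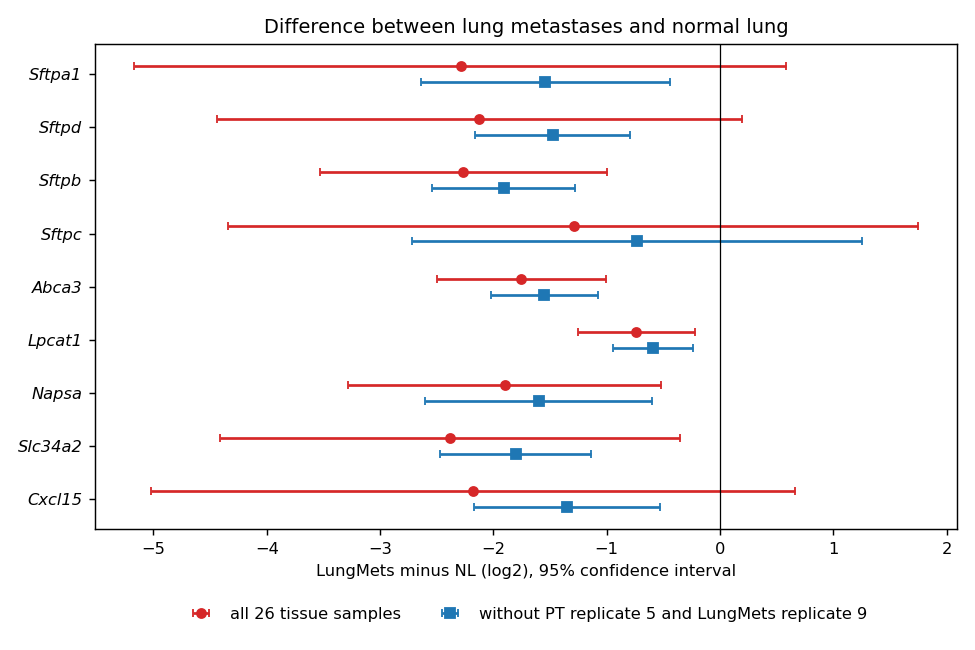
Differences between LungMets and NL on the log2 scale (x axis) for the 9 genes (y axis), with 95% confidence intervals from limma. Circles are from all 26 tissue samples and squares are from the fit without PT replicate 5 and LungMets replicate 9. The intervals use the spread that all groups share, PT and NMG included. In the second fit the intervals of 8 genes lie below 0, and that of Sftpc runs from -2.72 to 1.25.

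The variation among LungMets samples was far wider than among NL. The median SD of the 9 genes was 1.70 log2 units in LungMets and 0.09995 in NL, beside medians of 0.229 and 0.161 over all genes. Without LungMets replicate 9 the median SD of the 9 genes was 0.501 and that of all genes 0.217. Napsa then had the widest spread, with an SD of 0.738 that exceeded 96.8% of all genes, and Lpcat1 the narrowest, with 0.243 and 58.1%.

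Each LungMets sample was placed by the median of its 9 differences from the NL mean. Replicate 7 was highest at -0.98 log2 units, or 50.6% of NL. Replicates 2, 1, 8 and 4 followed at -1.11, -1.16, -1.26 and -1.31, or 46.2%, 44.7%, 41.7% and 40.2% of NL. Replicates 6, 5 and 3 lay lower at -1.86, -2.05 and -2.24, or 27.6%, 24.1% and 21.1%. Replicate 9 lay at -5.75, or 1.86%, and ranked lowest for 9 of 9 genes. The same samples held neighbouring ranks for most genes: replicates 3 and 5 were among ranks 6 to 8 of the 9 samples for all 9 genes and replicate 6 for 8 of them. Replicate 7 was the highest for 4 genes, replicate 2 for 3 and replicate 8 for 2. These ranks describe the samples and carry no test.

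**Figure D3:**
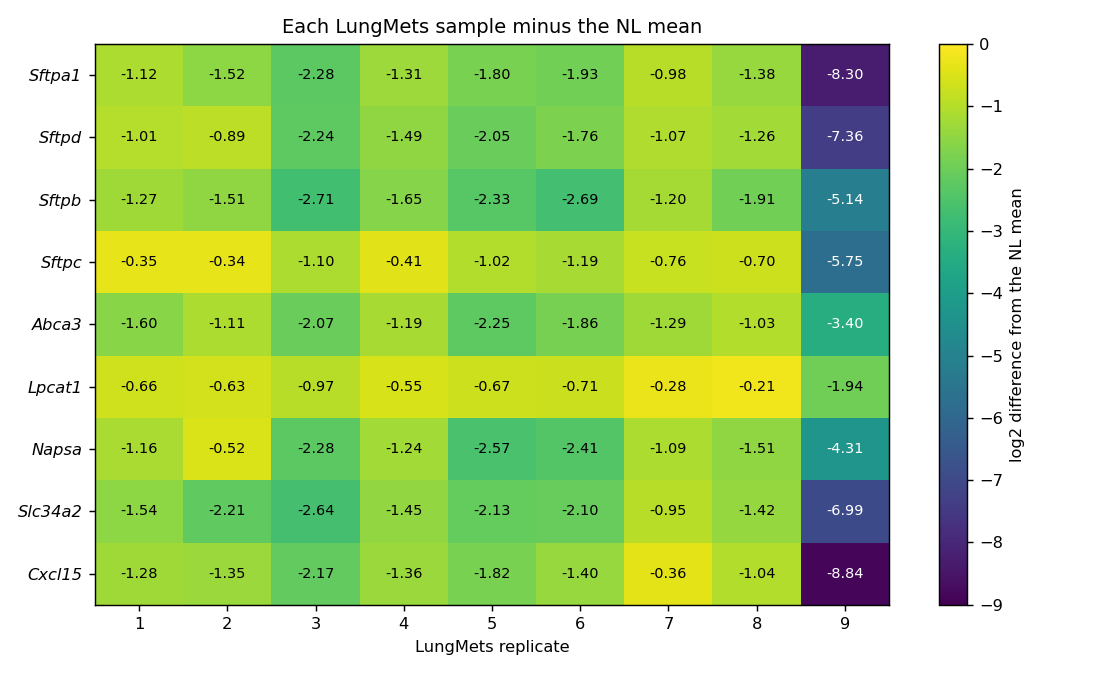
Log2 difference of each LungMets replicate (x axis) from the NL mean for the 9 genes (y axis), printed in each cell and shown by color. All cells are below 0, from -0.21 for Lpcat1 in replicate 8 to -8.84 for Cxcl15 in replicate 9, and the columns of replicates 3, 5 and 6 are lower than those of replicates 1, 2, 4, 7 and 8 for most genes.

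The 9 genes did not lie equally far from NL. Each of 36 pairs of genes was compared by an exact permutation test, two-sided, of the difference between both genes within a sample, 9 LungMets against 3 NL, and 8 pairs passed after adjustment over the 36 (adjusted p = 0.0409, from the smallest p that 220 arrangements allow, 0.00909). Lpcat1 took part in 5 of the 8 and lay nearer to NL than its partner each time. The difference from NL of the partner minus that of Lpcat1 was -1.56 for Sftpa1, -1.53 for Sftpb, -1.39 for Sftpd and -1.02 for Abca3, and that of Lpcat1 minus Slc34a2 was 1.64, with this side taken in 9 of 9 LungMets samples. Sftpc took part in 3 and lay nearer to NL than its partner, with 1.09 for Sftpc minus Slc34a2, -1.0 for Sftpa1 minus Sftpc and -0.84 for Sftpd minus Sftpc. The Sftpc values of NL lay near the array maxima, and the part of this in its pairs was not tested. Without LungMets replicate 9, 12 pairs passed (exact permutation, adjusted p = 0.0364) and 6 of them held Sftpc. Without LungMets replicate 2 or 7 the count was 9 or 10. Without LungMets replicate 1, 3, 4, 5, 6 or 8, or without any 1 NL sample, 0 pairs passed the same exact permutation test after adjustment, while 8 to 11 had an unadjusted p under 0.05. Only 165 arrangements remained without a LungMets sample and 55 without an NL sample, so the smallest p was larger. Adjustment then needs many pairs at that p, and these counts of 0 cannot tell dependence on a sample from a lack of arrangements. No pair with Cxcl15 passed in either set.

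Both label dates of the LungMets samples held low and high values. In the fit with LungMets of the first date alone 3 genes were called lower than NL, beside 20.2% of all genes, and 4 with those of the second date alone, beside 19.4%. Without replicate 9 the Sftpa1 mean was 12.27 on the first date and 12.30 on the second (n = 4 each), and that of Napsa was 10.07 and 9.48. Replicates 1 to 4 belong to the first date, so that the lower samples 3, 5 and 6 come from both.

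Other markers of lung epithelium and of vessels moved with the 9 genes. Of 10 alveolar type 1 markers 8 were lower in LungMets than in NL by limma, among them Clic5 (-3.40), a chloride channel protein, and Hopx (-2.61), a homeodomain protein of these cells. Of 8 club cell markers 6 were lower, and of 10 ciliated cell markers 9 were, and of 10 endothelial markers 10 were, such as the junction protein Cldn5 (-3.41). The median differences were -2.08, -2.32, -1.41 and -2.46. Of 12 further alveolar type 2 markers 6 were lower and 0 higher, with a median of -1.18, led by the calcium-binding protein gene S100g (-3.10) and Hc, complement C5 (-3.0). The 9 measured genes of dividing cells were all higher, with a median of 3.59. Without PT replicate 5 and LungMets replicate 9 the counts were 9 of 10, 7 of 8, 9 of 10, 10 of 10, 7 of 12 and 9 of 9. Of all genes 22.4% were called lower and 23.8% higher, and 22.5% and 23.6% without both samples. The counts without both samples were added after the data had been seen. Among markers of mammary epithelium 3 of 10 were higher and 2 lower, and among those of dendritic cells 1 of 9 was higher and 2 lower. Of 7 B lymphocyte genes 0 passed the limma test, and 0 had an unadjusted p under 0.05. Of 2 Y-linked genes 0 passed and 1 had an unadjusted p under 0.05.

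The same lists varied across the LungMets samples. The mean level of the 10 alveolar type 1 genes ran from 6.70 in replicate 9 to 10.20 in replicate 7, against 10.96 to 11.28 in NL. For the 8 club cell genes it ran from 5.44 in replicate 9 to 10.19 in replicate 1 (NL 10.95 to 11.35), and for the 10 endothelial genes from 6.66 in replicate 9 to 9.08 in replicate 7 (NL 10.38 to 10.50). The 9 genes of dividing cells had their lowest mean, 7.91, in replicate 7 and their highest, 9.60, in replicate 6. Replicate 7, with the highest surfactant genes, thus had the lowest genes of dividing cells, whereas replicate 9, with the lowest surfactant genes, had a median of 3.44 above NL for the latter, inside the range of 2.49 to 4.27 over the 9 samples. The part of these cell types in the values of the 9 genes was not tested.

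**Figure D4:**
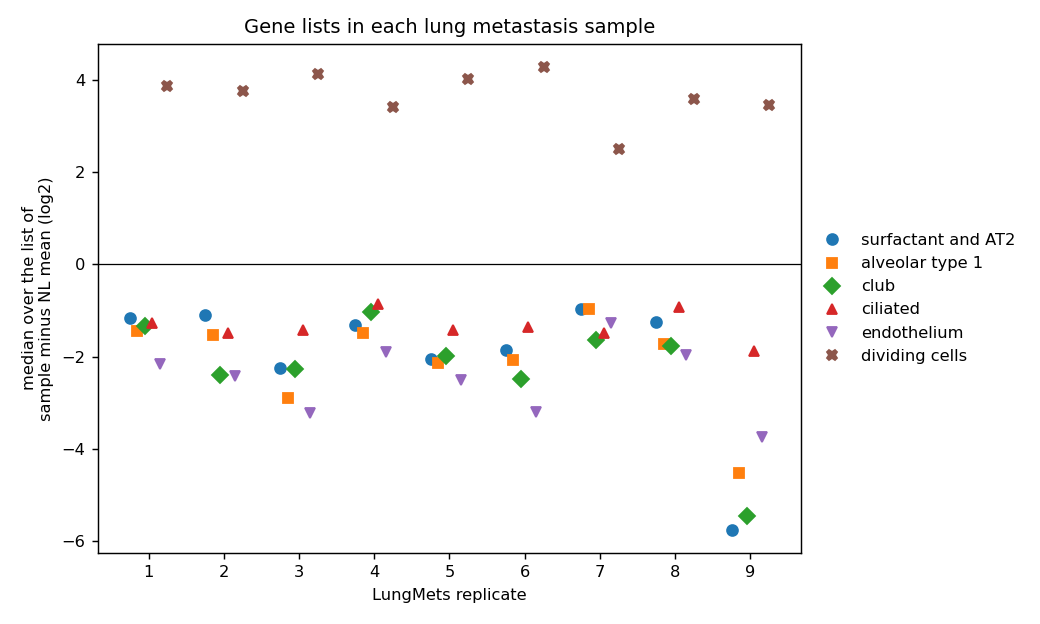
Median over each gene list of the difference from the NL mean (y axis, log2) in the 9 LungMets samples (x axis), for the 9 surfactant and alveolar type 2 genes and for markers of alveolar type 1, club, ciliated, endothelial and dividing cells. The lists of lung cells lie below 0 in every sample and the dividing cell list above it, from 2.49 in replicate 7 to 4.27 in replicate 6, and the surfactant list runs from -0.98 in replicate 7 to -5.75 in replicate 9.

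The genes most like the 9 across samples were found by the Pearson correlation with their mean, as a description with no test. Over the 26 tissue samples, which share tissue groups and arrays, the closest was Ager (0.997), a receptor of alveolar type 1 cells. It was followed by Sec14l3 (0.989), Limch1 (0.985), Cldn18 (0.984), Cbr2 (0.983), Hopx (0.983), Scgb3a2 (0.982), Tspan8 (0.978), Inmt (0.978) and Lgi3 (0.977). Over the 9 LungMets samples the order was Ager (0.998), Sec14l3 (0.990), Inmt (0.986), Limch1 (0.983), Aldh1a1 (0.982), Lgi3 (0.978), Cldn18 (0.976), Lyz2 (0.974), Itih4 (0.974) and Vegfd (0.972). Without replicate 9 these values were 0.975 for Ager and between 0.754 (Cldn18) and 0.910 (Lyz2) for the others.

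The pathway around the 9 genes was read from a list of 26 genes, of which 12 were lower in LungMets than in NL, 2 were higher and 12 did not pass, where 22.4% of all genes were called lower and 23.8% higher. Among 6 transcription factors of lung epithelium 4 were lower: Gata6 (-2.48, limma adjusted p = 2.79e-05), Foxa1 (-2.38, adjusted p = 0.000401), Foxa2 (-2.32, adjusted p = 0.000351) and Cebpa (-1.36, adjusted p = 3.97e-06). Nkx2-1, the master regulator of lung epithelium, was close to the array median, at 5.04 in NL and 4.78 in LungMets (adjusted p = 0.0757). Etv5 differed by -0.50 (adjusted p = 0.314).

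Of 11 genes of phospholipid and fatty acid synthesis 4 were lower, 1 was higher and 6 did not pass, beside the same shares of all genes. The choline kinases Chka (-1.41) and Chkb (-0.69), the choline and ethanolamine phosphotransferase Cept1 (-0.59) and the fatty acid synthase Fasn (-0.54) were lower, and the lipid carrier Fabp5 was higher (0.90, limma adjusted p = 0.00627). Of 3 genes of processing and feedback only Adgrf5, the receptor that limits the surfactant pool, was lower (-2.47, adjusted p = 0.000868). Of 6 genes of uptake and clearance Pla2g15 (-1.12), a lysosomal phospholipase, Pparg (-1.01), a nuclear receptor of alveolar macrophages, and the exporter Abcg1 (-0.88) were lower, and the exporter Abca1 was higher (0.77). The counts of the 26 genes were the same without PT replicate 5 and LungMets replicate 9, at 12 lower and 2 higher. Of 8 alveolar macrophage markers measured, 3 were lower and 1 higher, again beside 22.4% and 23.8% of all genes.

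All 9 genes were higher in LungMets than in PT by limma, where 9.02% of all genes were called higher. The differences were 6.75 log2 units for Sftpc, 6.56 for Sftpa1, 6.44 for Cxcl15, 5.49 for Sftpd, 4.41 for Slc34a2, 3.19 for Napsa, 2.66 for Sftpb, 1.66 for Abca3 and 0.58 for Lpcat1, with adjusted p from 0.000119 to 0.0196. The Lpcat1 call depended on the probe set. Its other bright probe sets gave 1.14 (limma adjusted p = 0.0012) and 0.38 (0.209), and the dim ones gave 0.18 (0.16) and 0.23 (0.126). Both groups were read from whole tissue, and markers of other lung cells were higher in LungMets than in PT as well. By limma 9 of 10 alveolar type 1, 6 of 8 club cell, 8 of 10 ciliated cell and 9 of 10 endothelial markers were higher, and 0 were lower. Of 8 alveolar macrophage markers 3 were higher and 1 lower. Which cells gave the signal of the 9 genes was not tested. The groups overlapped for each gene, and 0.066% of all genes had every LungMets above every PT sample. PT replicate 5 lay in the LungMets range and LungMets replicate 9 in or below the PT range. Without both, every LungMets sample lay above every PT sample for 9 of 9 genes, where 3.11% of all genes had that order, and the differences ran from 0.79 for Lpcat1 to 8.01 for Sftpa1. PT replicates 7 and 3 also had some signal, with Sftpc at 9.48 and 7.92 beside a PT median of 4.77, and Scgb1a1 at 10.76 and 7.98.

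Within the first label date (4 PT, 4 LungMets) 9 genes were higher in LungMets by limma, beside 5.63% of all genes. Within the second (7 PT, 5 LungMets), which holds both samples that stood apart, 0 passed after adjustment and 0% of all genes were called higher. There 8 of the 9 were higher at an unadjusted p under 0.05 (limma), beside 7.95% of all genes. The differences there were 5.73 for Sftpc, 5.56 for Sftpa1 and 0.54 for Lpcat1, against 8.23, 8.03 and 0.65 within the first. A test of the difference between the dates by limma gave 0 genes at an adjusted p under 0.05 and 1 at an unadjusted p under 0.05, Napsa (p = 0.0490). With date as a block in the fit 9 passed, beside 7.34% of all genes.

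The 9 genes separated the labelled normal tissues. Each was higher in NL than in NMG by limma, where 14.3% of all genes were called higher, and each NL sample lay above each NMG sample, an order found for 23.6% of all genes. The differences were 8.52 for Sftpa1, 7.49 for Sftpd, 7.19 for Slc34a2, 7.09 for Sftpc, 5.90 for Sftpb, 4.90 for Cxcl15, 2.45 for Abca3, 2.43 for Napsa and 2.11 for Lpcat1. Without NMG replicate 1 they were 9.52 for Sftpa1, 8.79 for Sftpc, 7.95 for Sftpd, 7.63 for Slc34a2 and 6.21 for Sftpb. With any 1 sample of NL or NMG left out the Napsa call was lost (adjusted p = 0.0558 to 0.0667), and so was that of Cxcl15 (0.0636 to 0.0941) except without NMG replicate 3. The Sftpc value of NMG replicate 1, 10.55, exceeded that of LungMets replicate 9. LungMets were above NMG for 6 of the 9 genes, where 23.1% of all genes were called higher, and Cxcl15 (2.72), Abca3 (0.70) and Napsa (0.53) did not pass. Abca3 and Cxcl15 passed without PT replicate 5 and LungMets replicate 9, at 0.90 (adjusted p = 0.00251) and 3.55 (adjusted p = 1.91e-07), where 24.1% of all genes were called higher.

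Between PT and NMG 4 of the 9 genes differed by limma, and 26.7% of all genes were called higher and 21% lower. Lpcat1 was higher in PT by 0.78 (adjusted p = 0.00993), with every PT sample above every NMG sample, an order found for 18.3% of all genes. Abca3 (-0.97, adjusted p = 0.0270), Napsa (-2.66, adjusted p = 0.00164) and Cxcl15 (-3.72, adjusted p = 0.0254) were lower. Without PT replicate 5 and LungMets replicate 9 these were 0.72, -1.09, -2.91 and -4.38, each past the threshold, and Sftpb was then higher by 0.72 (adjusted p = 0.0467). In that fit 27.4% of all genes were called higher and 21.5% lower. The difference of Sftpa1, Sftpd and Sftpc between PT and NMG changed sign without NMG replicate 1 and that of Slc34a2 without PT replicate 5, and none passed the test. With any 1 NMG sample left out Abca3 missed the threshold (adjusted p = 0.0690 to 0.0859), without NMG replicate 1 or 3 Cxcl15 did (0.0608 and 0.121), and without NMG replicate 3 Lpcat1 did (0.0563).

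Napsa had NL first, LungMets and NMG next and PT last. The difference between LungMets and NMG did not pass the test (0.53, SE 0.671, limma adjusted p = 0.549), which uses the spread that all groups share. A list of 7 B lymphocyte genes, chosen after the Napsa values were seen, had means of 9.18 to 9.27 in NMG, 6.04 to 6.34 in NL, 4.61 to 7.38 in LungMets and 4.11 to 7.40 in PT. PT replicate 9 had the highest of these means among PT and a Napsa value of 7.72, PT replicate 7 followed with 7.29 and 6.99, and PT replicate 11 had the lowest with 4.11 and 5.13. In PT replicate 5, in contrast, Napsa was 8.78 at a B lymphocyte mean of 4.52. LungMets replicate 9 had the highest B lymphocyte mean of its group, 7.38, and Napsa at 7.07. A second Napsa probe set read 7.65 in NMG and 7.58 in NL, and gave -2.13 for LungMets against NMG (adjusted p = 2.25e-05) where the first gave 0.53. The part of B lymphocytes in the Napsa values was not tested.

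The group means of the other genes had these orders. For Sftpa1, Sftpd, Sftpc, Sftpb and Slc34a2 the means descended from NL to LungMets and then to PT and NMG, whose difference from each other did not pass the test. For Abca3 and Cxcl15 NMG came after LungMets and above PT, and for Lpcat1 PT came after LungMets and above NMG. NL and LungMets are neighbours in each order, with the tests given above.

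The cultured JygMC(A) cells were read without replicates. Sftpa1 read 4.26 in the monolayer and 4.93 in the spheres, Sftpd 5.48 and 5.28, Sftpc 4.77 and 5.29, Slc34a2 5.67 and 6.21, Napsa 4.96 and 4.25 and Cxcl15 3.01 and 3.17. The means of the Y-linked genes, a reference for low signal in female tissue, lay between 2.85 and 3.31. Sftpb, at 6.73 and 6.89, was above every NMG sample in both cultures, and it was the only one of the 9 for which this held. Its highest NMG value, 6.71, was that of replicate 1, which stood apart. With that sample set aside, Slc34a2 was also above the other NMG samples, at 5.47 and 5.54, in both cultures. Lpcat1 read 8.63 and 8.83, below all 11 PT samples, and Abca3 7.01 and 7.61, inside the PT range. With 1 array each, the monolayer and the spheres were not compared by a test.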

How the data were processed

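Total RNA of whole tissue or cultured cells was hybridised to Affymetrix mouse arrays. The deposited values are log2 expression values of 45101 probe sets, which the authors obtained by RMA (background correction, quantile normalization, probe summary) in Partek 6.6, and no further normalization was applied. The version of RMA is not given in the sources used here. A value is relative to the other genes of its array.

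Probe sets with 1 annotated gene symbol were kept (34958, while 932 listed several and 9211 none), for 18194 genes, 9012 of them with several probe sets. Identifiers of 34754 probe sets were found in the RefSeq table and 204 were not. The 10 genes, the lists and the tests were chosen with earlier results of these data known, and the B lymphocyte list after the Napsa values were seen. Other genes were named by rule: up to 4 called genes per list or pathway role with the largest difference between LungMets and NL, and the 10 most correlated with the mean of the 9 genes over 26 tissue or 9 LungMets samples. Scgb1a1, Nkx2-1, Etv5 and Fasn were named after their values were seen.

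Groups came from the labels. Group means of the 26 tissue samples were fitted in limma 3.58.1 (lmFit, eBayes; R 4.3.3, jsonlite 2.0.0), two-sided, with Benjamini-Hochberg adjustment over 18194 genes and a threshold of 0.05. Simulated data with known shifts in each of the 5 comparisons served as a test of the fit. The fit uses a spread per gene that all groups share, while the median SD of the 9 genes was 1.70 log2 units in LungMets and 0.09995 in NL. How this unequal spread bears on the p-values of the 9 genes was not tested. Both cultures were left out of the fits. Pairs of genes were compared by exact permutation in Python 3.11.15 (numpy 2.4.6, pandas 2.3.3). Lamp3 had no value, so 36 pairs of 9 genes were tested rather than all pairs of 10. Plots used matplotlib 3.10.9. The alternatives tried were the mean or each single one of a gene's probe sets, low genes removed, arrays centred or quantile normalized again, date or replicate number as a block, array weights, 2-group fits, no moderation, a fold change over 2, and samples left out. Leaving out NMG replicate 1 together with PT replicate 5 or LungMets replicate 9 was added after the data had been seen.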

Additional observations from a re-analysis of the deposited data

Results flagged for a closer look

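LungMets replicate 9 lay far from the other 8 lung metastases for 7 of the 9 genes. Its gap to the nearest other sample, as a share of the whole range of the group, was 0.842 for Sftpc, 0.822 for Sftpa1, 0.791 for Sftpd, 0.787 for Cxcl15, 0.721 for Slc34a2, 0.618 for Sftpb and 0.561 for Lpcat1, each above Dixon's critical value for 9 samples. For Abca3 and Napsa the gap did not pass it. Chance puts about 5% of such groups past this value, and the 7 come from the same sample, so they are not independent. Sftpc in this sample was 8.49, beside 13.05 to 13.90 in the other 8.

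Sftpb was above every NMG sample in both cultures of JygMC(A) cells, at 6.73 in the monolayer and 6.89 in the spheres. The highest NMG value was 6.71, in replicate 1, which stood apart. No test could be made with 1 array each.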

How the results depend on the processing

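Of 1787 values of single genes under the alternatives, 1699 kept their direction and their side of the threshold, 50 lost a call, 25 gained one and 13 changed sign. In many of these settings the difference itself could not change. It stays the same when the sample left out is in neither group compared, and the fold change rule uses the values of the main fit. The number that stayed the same is therefore no measure of how stable the results are. Between LungMets and NL 8 genes were called without PT replicate 5 and LungMets replicate 9 together in place of 4. Within the second label date 0 genes were called between LungMets and PT in place of 9. Between PT and NMG 2 were called with the fold change rule in place of 4, and the share of all genes under that rule is not given here. With the mean of probe sets 13 pairs of genes passed in place of 8. The causes were not tested.

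With 1 sample left out at a time, the genes called numbered 2 to 6 for LungMets against NL (2 without NL replicate 1), 9 to 9 for LungMets against PT, 7 to 9 for NL against NMG, 1 to 4 for PT against NMG (1 without NMG replicate 3 and 2 without NMG replicate 1) and 6 to 8 for LungMets against NMG. The shares of all genes called in these fits are not given here, so these counts are not read as results about the 9 genes. The pairs numbered 0 to 12 (fewer arrangements remain with 1 sample less), and the median SD over LungMets was 0.501 without replicate 9. In PT against NMG the differences then ran from -1.03 to 0.67 for Sftpa1, -0.69 to 0.34 for Sftpd, -2.04 to 0.74 for Sftpc and -0.08 to 0.84 for Slc34a2.

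Signs also changed for Sftpc in PT against NMG without PT replicate 5 and NMG replicate 1 (0.05), for Slc34a2 there without PT replicate 5 and LungMets replicate 9 (-0.08), and for Napsa in LungMets against NMG with the mean of probe sets (-0.80). With single probe sets they changed for Lpcat1 (0.43 and 0.22) and Sftpc (0.72) in LungMets against NL, Napsa in LungMets against NMG (-2.13) and in NL against NMG (-0.07), and Sftpa1 in PT against NMG (0.19).

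The labels link single samples of different groups only by a replicate number. Same-numbered PT and LungMets deviated together above 0.1 in 7 of 9 pairs (correlations -0.23 to 0.48), and in the other comparisons 0 pairs did. PT and LungMets also share label dates, which were not removed from these correlations, and samples of unlike number were not correlated. The deviations were taken from group means that include PT replicate 5 and LungMets replicate 9, whose same-numbered pairs gave 0.44 and 0.41. Whether the number, the date or these samples lie behind the correlations was not tested. With the replicate block 4 genes were called for LungMets against NL (49.3% of all genes), 9 for LungMets against PT (15.5%), 9 for NL against NMG (34.4%), 3 for PT against NMG (47.1%) and 6 for LungMets against NMG (43.7%). The 4 were not those without the block: Napsa was lost (limma adjusted p = 0.0634) and Slc34a2 gained (0.0323). Abca3 was lost in PT against NMG (0.0572).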
